A study of Mus musculus with 10 samples.

Results

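The miR-101 family of mouse consists of miR-101a, miR-101b and miR-101c, and it was followed here in liver with and without Tsc1. Its members were the rows of the deposited table named miR-101a, miR-101b or miR-101c once any arm suffix was removed, which gave 3 of the 285 miRNAs in the table. All 3 were read in each of the 10 libraries, with 1047 to 485350 reads per member and library. The study sequenced small RNA of mouse liver at 14 weeks of age and compared 5 littermate controls with 5 Tsc1 mutants, which the labels call L-Tsc1KO. Tsc1 is a subunit of the TSC complex, which restrains the growth kinase complex mTORC1. The labels do not say which promoter drives the knockout, whether the mice were male or female, or whether each library came from its own mouse. The p-values below therefore measure the spread between these libraries, and Tsc1 messenger RNA was not analysed here.

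A mature miRNA guides an Argonaute protein to messenger RNAs and finds them mainly by pairing of its seed, the bases 2 to 8 from its 5′ end. In liver miR-101 is known as a tumour-suppressing miRNA that is often reduced in hepatocellular carcinoma. Its best known target is Ezh2, the methyltransferase subunit of Polycomb repressive complex 2, and Mtor, the kinase of the pathway that the TSC complex restrains, is among its reported targets. Neither messenger RNA was measured in these libraries.

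The mature sequences are shown because the members differ mainly in where they begin, and the start sets the seed. They come from the RefSeq table of GRCm38.p6, which matched all 3 members by name. The names in the deposited table carry no arm, and the 3p arm is given for miR-101a and miR-101b because older names without an arm referred to it. Capitals mark the seed.
miR-101a-3p: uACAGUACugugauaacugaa
miR-101b-3p: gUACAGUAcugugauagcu
miR-101c: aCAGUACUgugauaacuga
All 3 share a run of 14 bases, acaguacugugaua. Counted from the 5′ end of miR-101a-3p, miR-101b-3p starts 1 base earlier and has a single substitution, A16G, in the 18 bases that can be compared. The annotated miR-101c starts 1 base later, ends 1 base earlier and is identical to miR-101a-3p over all its 19 bases. The 3 annotated starts thus give 3 different seeds, each shifted by 1 base.

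The hairpins of miR-101a and miR-101b are shown to set the mature sequences in their surroundings, and capitals mark the mature 3p sequence. The bases directly before and after it are also alike in both hairpins. The g that begins miR-101b-3p stands in Mir101a too, just before the annotated start of miR-101a-3p.
Mir101a: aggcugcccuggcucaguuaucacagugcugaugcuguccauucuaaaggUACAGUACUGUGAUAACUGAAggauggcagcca
Mir101b: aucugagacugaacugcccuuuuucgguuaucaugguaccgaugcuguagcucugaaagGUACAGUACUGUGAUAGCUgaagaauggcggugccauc
Among the 1005 hairpins of the RefSeq table, the miR-101a-3p and miR-101b-3p sequences each occurred in 1, their own. The miR-101c sequence also occurred in 1 of them, which was Mir101a; the Mir101c hairpin was not among those searched. A read with exactly the 19 bases of miR-101c therefore also fits Mir101a, and a read that ends before base 16 of miR-101a-3p cannot be assigned by the substitution. How the authors assigned such reads is not stated in the labels, so the split between members, and the value of miR-101c above all, is uncertain to that extent.

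The genes lie on 3 chromosomes, and the positions were taken by name from GENCODE M21 on GRCm38. Mir101a is at 101346945 to 101347027 on the minus strand of chromosome 4, where it overlaps an exon of the long non-coding RNA gene E130102H24Rik on the same strand. Mir101b is at 29135279 to 29135375 on the plus strand of chromosome 19, in an intron of the protein-coding gene Rcl1, which lies at 29101375 to 29143929 on the same strand. Mir101c is at 3038669 to 3038743 on the minus strand of chromosome 9 and overlaps no other annotated gene, the nearest being Gm10715 at a distance of 352 bases.

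Values are normalised reads, the authors' miRNA reads divided by 1 factor per library. Over all 10 libraries miR-101b averaged 235645 normalised reads, miR-101a 168678 and miR-101c 2093. By mean level miR-101b was 8th, miR-101a 12th and miR-101c 82nd of the 285 miRNAs. In single libraries miR-101b ranked between 6th and 13th and miR-101a between 8th and 16th. The order of the members was the same in every library, with miR-101b above miR-101a and miR-101c far below both. Together they made up 3.94 ± 1.53% of the miRNA reads of control livers and 4.83 ± 1.60% of those of mutants (SD over 5 libraries each).

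No member passed the test for a difference between genotypes. Levels were compared with limma on log2(normalised value + 1) over all 285 miRNAs, with Benjamini-Hochberg adjustment and a threshold of 0.05. In that test 31 miRNAs rose, or 10.9%, and 6 fell, or 2.11%, so that 13.0% of all miRNAs were called against 0 of the 3 members. At an unadjusted limma p under 0.05 there were 64 of the 285 miRNAs, or 22.5%, and 0 members. With voom on whole reads 37 miRNAs, or 13.0%, passed the adjusted threshold, and again 0 members. The groups overlapped for all 3, whereas 29 of the 285 miRNAs, or 10.2%, had every mutant above every control and 7, or 2.46%, every mutant below.

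miR-101b is the most abundant member and had the largest difference of the 3. Its normalised reads in control replicates 1 to 5 were 316147, 137248, 181746, 166989 and 214425. In Tsc1 mutant replicates 1 to 5 they were 421790, 207502, 286183, 222730 and 201686. The groups overlapped, since mutants 2 to 5 lay below the highest control, although all 5 mutants lay above the control median. Controls averaged 203311 ± 68928 and mutants 267978 ± 92316 (SD, n = 5 each). The log2 fold change was 0.40 ± 0.26 (SE), or 1.32-fold, with a limma adjusted p of 0.428 (exact permutation p = 0.190, 2-sided, unadjusted). Its 95% interval ran from 0.89-fold to 1.95-fold. Single libraries moved this value. On the log2 scale it was 0.57 without control replicate 1 and 0.27 when control replicate 2 was dropped instead. Dropping Tsc1 mutant replicate 1 gave 0.22.

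miR-101a, the member encoded on chromosome 4, differed little between genotypes relative to its spread. Its normalised reads in control replicates 1 to 5 were 243091, 129619, 141298, 135791 and 166100. In Tsc1 mutant replicates 1 to 5 they were 261431, 142872, 174971, 146907 and 144700. Replicate 1 was the highest library of each group, and the other 8 libraries lay between 129619 and 174971 with the genotypes overlapping. Controls averaged 163180 ± 46770 and mutants 174176 ± 50513 (SD, n = 5 each). The log2 fold change of 0.09 ± 0.22 (SE) had a limma adjusted p of 0.895 (exact permutation p = 0.619, 2-sided, unadjusted) and a 95% interval from 0.77-fold to 1.48-fold. Dropping Tsc1 mutant replicate 1 changed its sign, to -0.06, and dropping control replicate 1 gave 0.25.

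miR-101c, the rare member whose sequence lies within miR-101a-3p, had the opposite sign. Its normalised reads in control replicates 1 to 5 were 2862, 2065, 1914, 1761 and 2219. In Tsc1 mutant replicates 1 to 5 they were 2860, 1727, 2110, 1620 and 1796. The groups overlapped almost fully, and replicate 1 was again the highest of each. The log2 fold change of -0.11 ± 0.19 (SE) had a limma adjusted p of 0.851 (exact permutation p = 0.563, 2-sided, unadjusted) and a 95% interval from 0.69-fold to 1.24-fold. It was -0.00278 when control replicate 1 was dropped and -0.24 when Tsc1 mutant replicate 1 was.

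**Figure D1:**
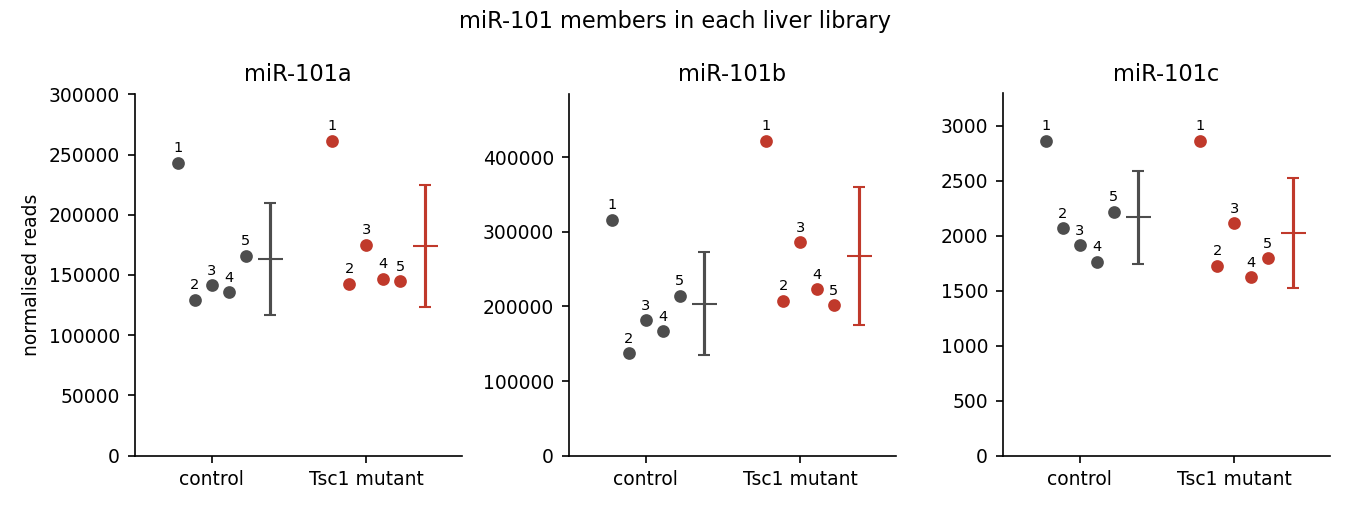
Normalised reads (linear axis from 0) of miR-101a, miR-101b and miR-101c in each library, numbered by replicate, with the group mean and SD (n = 5) beside the points. Replicate 1 is the highest point of both groups in all 3 panels, and the groups overlap in each.

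**Figure D2:**
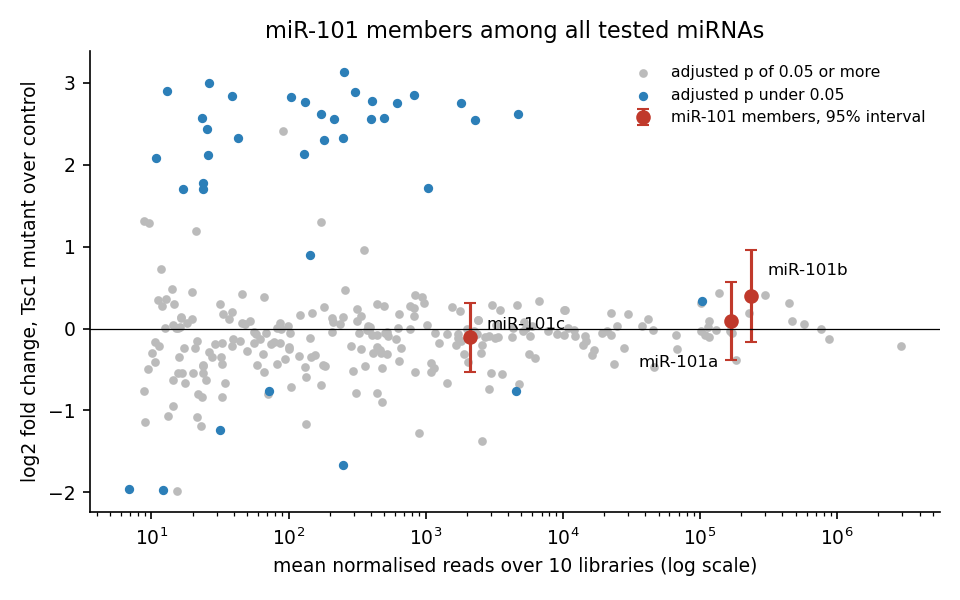
Log2 fold change of Tsc1 mutant over control for all 285 miRNAs against their mean normalised reads over the 10 libraries (log axis), with miRNAs past the threshold in blue and the miR-101 members in red with 95% intervals. The interval of each member includes 0, and the members lie among grey points while most blue points lie above 1.

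The balance between the members differed between genotypes more clearly than their levels. A ratio of members of the same library does not depend on how libraries were scaled. In control replicates 1 to 5 there were 1.30, 1.06, 1.29, 1.23 and 1.29 reads of miR-101b per read of miR-101a. In Tsc1 mutant replicates 1 to 5 there were 1.61, 1.45, 1.64, 1.52 and 1.39. Every mutant lay above every control. Controls averaged 1.23 ± 0.101 and mutants 1.52 ± 0.103 (SD, n = 5 each), a difference of 0.31 ± 0.071 on the log2 scale (SE). The ratio was described without a test, because the members were chosen with results of these libraries known. As a share of the family, miR-101b made up 54.8 ± 2.18% in control and 60.0 ± 1.64% in mutant livers, and miR-101a 44.6 ± 2.09% and 39.5 ± 1.61% (SD, n = 5 each).

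Such a separation was not particular to this pair among all miRNAs. Of the 284 ratios of another miRNA to miR-101a, 25, or 8.8%, had every mutant above every control, and 5, or 1.76%, every mutant below. Of the 25, 24 belonged to miRNAs that limma called higher in mutants on their own, and the remaining 1 was miR-101b. A limit of at least 10000 normalised reads on average was chosen after the values were seen. Of the 46 other miRNAs that met it, 1, or 2.17%, was separated in this way from miR-101a, and it was miR-101b. The 24 called miRNAs all lay below that limit, so its standing alone there follows from where the limit was set.

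Control replicate 2 had the lowest ratio, 1.06, and it is also the library with the highest sums of biliary epithelial and striated muscle markers. All 5 biliary epithelial markers were at their highest there, with a sum of 35789 normalised reads against a control median of 5734 and 3126 to 7014 in mutants. Of the 5 striated muscle markers listed the table held 3, of which 2 were at their highest there, with a sum of 5638 against a control median of 541 and 151 to 919 in mutants. None of these 8 markers was at 0 in any library. The stellate and smooth muscle markers also had their highest sum in control replicate 2, with 2 of the 5 at their highest. That sum was 363788 against a control median of 194469 and 131317 to 243057 in mutants. Whether any of these markers bear on the ratio was not tested. Without control replicate 2 the ratio was 1.28 ± 0.032 in controls (SD, n = 4), against 1.52 ± 0.103 in mutants (SD, n = 5).

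The ratio of miR-101c to miR-101a overlapped between genotypes. In control replicates 1 to 5 there were 1.18, 1.59, 1.35, 1.30 and 1.34 miR-101c reads per 100 of miR-101a. In Tsc1 mutant replicates 1 to 5 there were 1.09, 1.21, 1.21, 1.10 and 1.24. Only control replicate 1 fell within the range of the mutants. With both libraries numbered 1 left out, controls were at 1.30 or more and mutants at 1.24 or less. Against miR-101b the groups did not overlap, with 0.905 to 1.50 miR-101c reads per 100 in controls and 0.678 to 0.890 in mutants, a pattern that 20 of the 284 ratios to miR-101b, or 7.04%, showed, this one included.

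**Figure D3:**
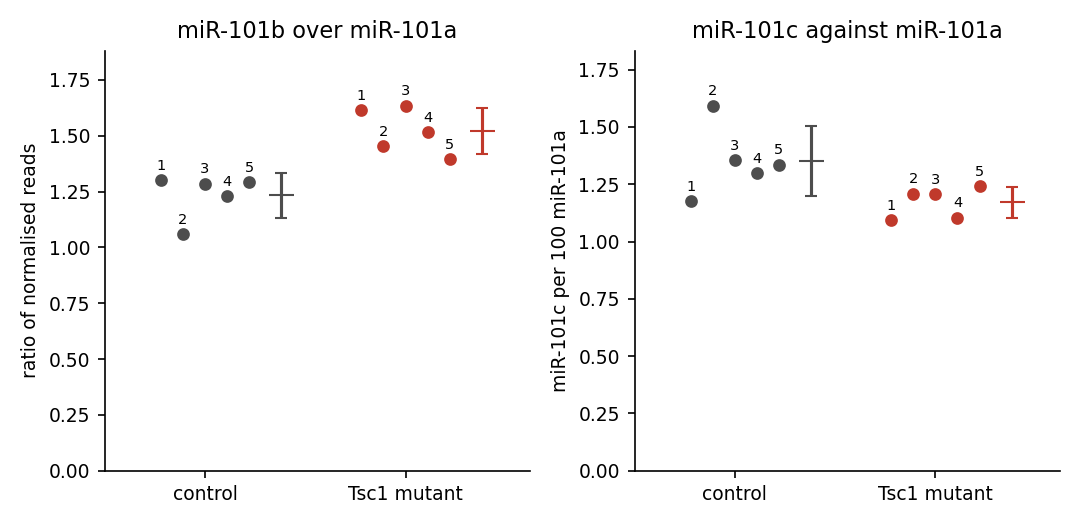
Reads of miR-101b per read of miR-101a (left) and of miR-101c per 100 reads of miR-101a (right) in each library, numbered by replicate, with the group mean and SD (n = 5); both axes start at 0. On the left all mutants, from 1.39 to 1.64, lie above all controls, from 1.06 to 1.30; on the right control replicate 1 lies among the mutants.

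Much of the spread within a genotype lay in the libraries numbered 1, in which all members were high together. Relative to its own mean over the 10 libraries, miR-101a was at 0.57 in control replicate 1 and 0.67 in Tsc1 mutant replicate 1 on the log2 scale. miR-101b was at 0.50 and 0.91 in the same libraries, and miR-101c at 0.48 in both. These 2 libraries were the highest of their group for every member. The 8 let-7 miRNAs, an abundant family of liver, had a median deviation of -1.48 in the control and -1.13 in the mutant, but they split. let-7a to let-7e lay between -1.86 and -1.44 in the control and between -1.46 and -1.05 in the mutant. let-7f, let-7g and let-7i were at -0.68, -0.65 and -0.24 in the control and at -0.051, -0.0078 and 0.043 in the mutant. miR-122, the dominant hepatocyte miRNA, was at -0.48 and -0.46. The part of these differences in the miR-101 values was not tested. In bulk liver, fewer cells of a type and less RNA per cell cannot be told apart.

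With both libraries numbered 1 left out, the spread of the members shrank and the groups still overlapped for each member. miR-101b then averaged 175102 ± 32090 over controls and 229525 ± 38800 over mutants (SD, n = 4 each), with a log2 fold change of 0.40 and a limma adjusted p of 0.120. Its highest control, at 214425, lay above 2 of the 4 mutants. miR-101a was at 143202 ± 15994 and 152362 ± 15162 (SD, n = 4 each). The ratio of miR-101b to miR-101a averaged 1.22 ± 0.109 over controls and 1.50 ± 0.104 over mutants (SD, n = 4 each).

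**Figure D4:**
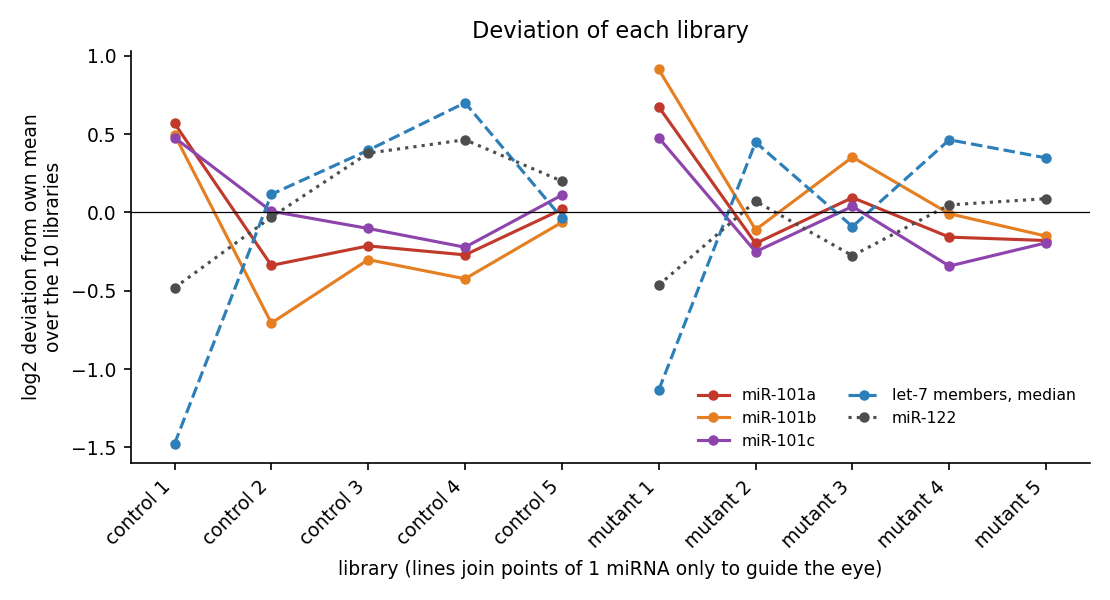
Log2 deviation of each library from the miRNA's own mean over the 10 libraries, for the 3 miR-101 members, miR-122 and the median of 8 let-7 miRNAs. In control replicate 1 and Tsc1 mutant replicate 1 all 3 members lie at or above 0.48, while the let-7 median lies at -1.48 and -1.13 and miR-122 at -0.48 and -0.46.

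The miRNAs most like each member in pattern over the 10 libraries were named by the root mean square difference between log2 deviations, among 203 other miRNAs with at least 50 normalised reads on average. For miR-101a the nearest were miR-20a at 0.14, miR-186 at 0.14, miR-542-3p at 0.15, miR-378b at 0.16 and miR-30a at 0.17, where the median of all 203 was 0.55. For miR-101b they were miR-378 at 0.18, miR-15a at 0.19, miR-30e at 0.21, miR-20a at 0.21 and miR-362-3p at 0.22, against a median of 0.63. For miR-101c they were miR-186 at 0.12, miR-30b at 0.13, miR-378b at 0.13, miR-339-5p at 0.15 and miR-146a at 0.16, against a median of 0.49. None of these 12 different miRNAs passed the test between genotypes. The pattern takes in the difference between genotypes, so this follows in part from how they were chosen.

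The members were not each other's nearest miRNAs. Seen from miR-101a, miR-101c was the 4th closest of all, at 0.15, and miR-101b the 10th, at 0.18. Seen from miR-101b, miR-101a was the 2nd closest, and miR-101c, at 0.32, the 20th. Of the miRNAs outside the family, the 2 nearest to miR-101b were miR-378 and miR-15a. Their log2 fold changes were 0.44 and 0.41, with limma adjusted p of 0.165 and 0.444, and that of miR-101b was 0.40. Nearness in pattern already takes in the fold change, so this closeness is no separate result.

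By level miR-101b and miR-101a sat among abundant liver miRNAs. Next above miR-101b came let-7f at 446555 ± 80212 and let-7g at 296265 ± 54440 normalised reads, and next below let-7a at 226346 ± 86377 and miR-143 at 182996 ± 65841 (SD, n = 10). let-7g exceeded miR-101b in 8 of 10 libraries and let-7a in 6, so the order of miR-101b and let-7a did not exceed their spread. Around miR-101a lay let-7c at 170876 ± 74728 above and miR-194 at 165057 ± 24026 below, each of which exceeded it in 6 of 10 libraries. miR-378, the next below, exceeded it in 1. Around miR-101c, miR-541 at 2288 and miR-186 at 2234 lay above and miR-182 at 2050 and miR-98 at 2019 below, each above it in 5 or 6 of 10 libraries. Of these neighbours only miR-541, from the Dlk1-Dio3 locus, passed the test, at 2.55 on the log2 scale.

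miRNAs with a related start were looked at next, and their sequences are shown with bases 2 to 8 in capitals to set them against the seeds of the family.
miR-144-3p: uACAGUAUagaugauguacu
miR-139-5p: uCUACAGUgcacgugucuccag
miR-199a-3p: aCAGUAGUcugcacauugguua
Of 1679 mature names in the RefSeq table, miR-144-3p alone shared bases 2 to 7 with miR-101a-3p, and miR-582-5p alone with miR-101b-3p. No other name shared them with miR-101c, and none shared bases 2 to 8 with any member. A mature sequence was matched for 239 of the 285 deposited names, and among these miR-144, an erythroid miRNA, was the sole one outside the family to share bases 2 to 7 with a member.

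None of the 4 miRNAs listed as seed-related passed the test, which 13.0% of all 285 miRNAs did. Their median log2 fold change was 0.01 against -0.06 for all 285. miR-144 was read at 1277, 928, 666, 744 and 767 normalised reads in control replicates 1 to 5. In mutants it was at 1034, 937, 838, 1404 and 1184. The groups overlapped, and the log2 fold change of 0.32 ± 0.21 (SE) had a limma adjusted p of 0.444. The most abundant of the list, miR-199a-3p, was at 0.01 on the log2 scale, and so was miR-199b. In controls they averaged 10880 ± 1536 and 5414 ± 767 normalised reads (SD, n = 5). The 2 moved nearly in step. miR-199a-3p ran from 9152 to 12977 in controls and from 9448 to 13796 in mutants, and miR-199b from 4544 to 6467 and from 4704 to 6866. The median of the list falls between these 2, so it may rest on 1 signal counted more than once. Whether they share reads was not tested.

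Further lists held other miRNAs reported to repress Ezh2 or genes of the mTOR complexes. Of 11 miRNAs linked to Ezh2, the table held 8, of which 0 passed in either direction. Their median log2 fold change was 0.00077, and the range ran from -0.32 to 0.19. The most abundant, let-7a, was at 0.19 ± 0.44 (SE), and miR-26a, another repressor of Ezh2, at 0.10 ± 0.13 (SE). Of 14 miRNAs linked to Mtor, Rptor or Rictor, the table held 12, of which 1 rose and 0 fell. Their median log2 fold change was 0.02. Over all 285 miRNAs 10.9% rose and 2.11% fell, and with lists this short the counts are no result about either list. miR-144 and miR-199a-3p are in both the seed-related and the mTOR-linked list. The most abundant, miR-99a, a repressor of Mtor, was at 0.04 ± 0.13 (SE). The 1 that rose was miR-496, at 2.08 ± 0.36 on the log2 scale (SE) with a limma adjusted p of 0.00149, from 3.57 ± 1.98 to 17.9 ± 6.19 normalised reads (SD, n = 5 each). Its hairpin belongs to the Dlk1-Dio3 locus. In controls it was near the 2.13 to 5.05 normalised reads that 3 reads were worth.

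The tissue was checked on marker miRNAs. miR-122 was the most abundant miRNA, at -0.21 ± 0.19 on the log2 scale (SE), and of the 5 hepatocyte markers 1 rose, miR-802, at 1.72. Among 3 erythroid, 6 leukocyte, 5 stellate and smooth muscle, 2 endothelial, 5 biliary epithelial and 3 striated muscle markers 0 passed. Their median log2 fold changes were 0.11, -0.06, -0.10, -0.05, -0.74 and -1.27, and that of the hepatocyte markers was -0.01. The most abundant members of the other 6 lists were miR-486, miR-146a, miR-143, miR-126-3p, miR-200b and miR-1a. Over all 285 miRNAs 13.0% were called. Some markers, miR-144 and miR-199a-3p among them, were also in the lists above. The stellate and smooth muscle, biliary epithelial and striated muscle lists had their highest sums in control replicate 2. Library depth ran from 6228497 to 12129069 miRNA reads.

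The difference of each member was followed through every setting of the analysis. Across the 25 alternatives miR-101b was above 0 in all, between 0.22 and 0.57 on the log2 scale, and passed the threshold in 0. Its smallest limma adjusted p was 0.0560, with the replicate number as a block. The filters, the replicate block and limma without its intensity trend left every fold change as it was, so they do not test a direction. miR-101a ranged from -0.06 to 0.25 and miR-101c from -0.24 to -0.00278, and neither passed in any.

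**Figure D5:**
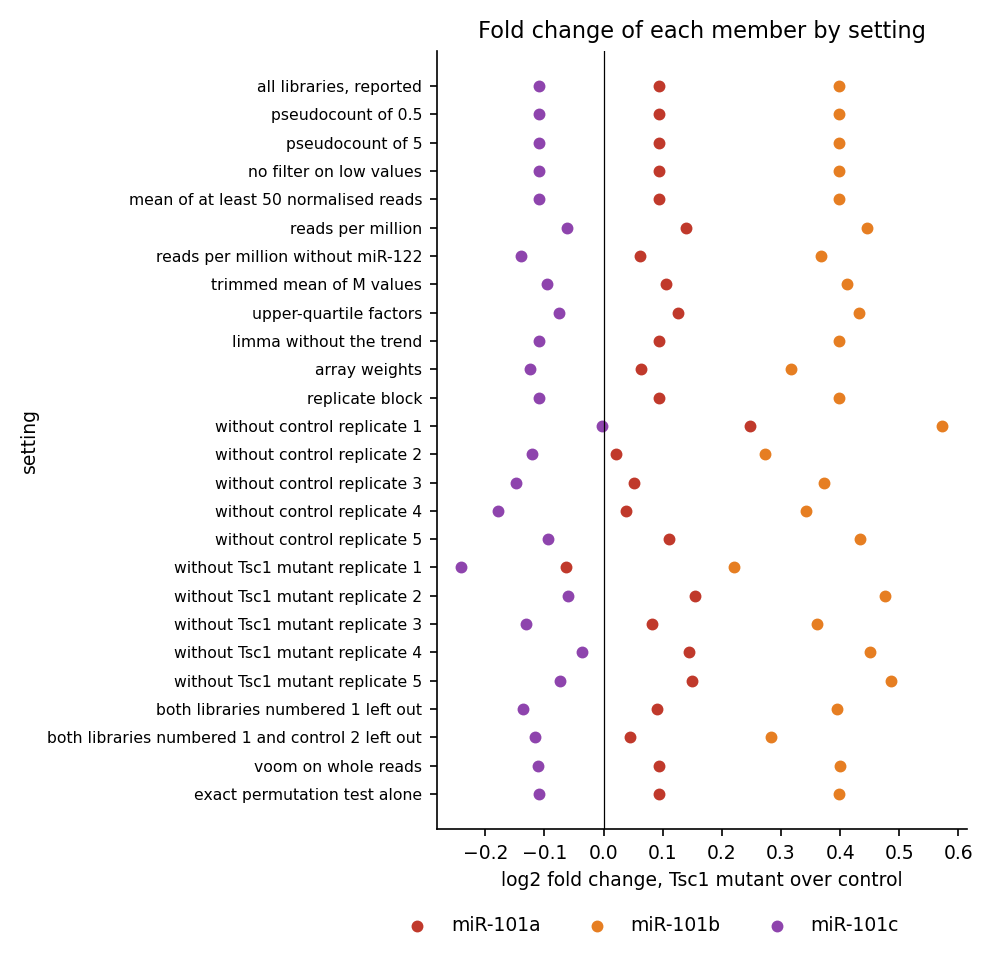
Log2 fold change of Tsc1 mutant over control for each member under each setting. miR-101b lies to the right of 0 in every row, from 0.22 to 0.57, miR-101c to the left, and miR-101a crosses 0 without Tsc1 mutant replicate 1, at -0.06.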

How the data were processed

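Small RNA libraries of mouse liver were analysed, 5 control and 5 Tsc1 mutant. The deposited values are a normalised signal, for which the authors divided miRNA reads by 1 factor per library. DESeq is named, with no version, in the submitters' processing notes. Aligner, miRNA annotation, genome build and filters were not given in the sources used here. For each library, every value was a whole multiple of 1 step within 0.001 (100% of values), between 0.711 and 1.68 normalised reads, and division by it gave whole reads.

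Values were compared as log2(value + 1) with limma 3.58.1 in R 4.3.3, with an intensity trend, over the 285 miRNAs, all of which had a mean of at least 5 normalised reads. Fold changes are on that scale, which understates the change of rare miRNAs. Single members were also compared by 2-sided exact permutation over 252 splits, for which the smallest p is 0.00794. Simulated libraries with known changes were used to test the fit. The named miRNAs are the members, the 5 nearest in pattern and 2 neighbours in level on each side. The most abundant and any called miRNA of each list (seed-related, Ezh2-linked, mTOR-linked and cell type markers) are named too. Outside this rule, miR-26a, miR-144, miR-139-5p, miR-199b, miR-582-5p and the other let-7 miRNAs were also named. Members and lists were chosen with earlier results of these data known. Alternatives were other pseudocounts, filters, scalings and models, a replicate block and libraries left out; voom on whole reads was added after the data were seen. Figures were drawn with matplotlib 3.10.9.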

Additional observations from a re-analysis of the deposited data

Results flagged for a closer look

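Among 22 groups of 5 values (the members, their sum and ratios, and 5 related miRNAs), 1 held a library separated from its nearest neighbour by an unusually wide gap; about 1 such group in 20 arises by chance, or 1.1 here. It was miR-101a in Tsc1 mutant replicate 1, at 261431 normalised reads against 142872 to 174971 in the other mutants. The gap, taken on normalised reads and not on their log2, was 0.729 of the group's range, above the limit of 0.71. On the log2 scale this library deviated by 0.67, the next mutant by 0.09 and the lowest by -0.20, a gap under that limit. The flag therefore depends on the scale. Without this library the log2 fold change of miR-101a was -0.06.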

How the results depend on the processing

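The call of each member, which was none, was the same in all 25 alternatives run for it. The direction was the same for miR-101b and miR-101c in all of them, and for miR-101a in 24. It reversed for miR-101a without Tsc1 mutant replicate 1, to -0.063. The filters, the replicate block, limma without its intensity trend and the exact permutation test could not change a direction, though they are counted here. The other pseudocounts could hardly do so, and the setting without a filter repeats the main fit, call included. With single libraries left out, miR-101a ranged from -0.063 to 0.25, miR-101b from 0.22 to 0.57 and miR-101c from -0.24 to -0.00278 on the log2 scale. The log2 difference of the miR-101b to miR-101a ratio ranged from 0.25 to 0.34 and that of the family sum from 0.098 to 0.43. With the replicate number as a block, miR-101b was at 0.40 (limma adjusted p = 0.0560), miR-101a at 0.09 and miR-101c at -0.11, and the count of miRNAs that fell was 10 against 6. The numbers share no stated source: the correlation of same-numbered libraries ran from -0.021 to 0.81, and 4 of 10 libraries correlated best with their own number.

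Counts over all miRNAs, 31 higher and 6 lower, moved more. Those higher were 19 when a mean of 50 normalised reads was required, 19 when libraries were scaled to their total and 20 when miR-122 was left out of that total. Those lower were 3 when a mean of 50 was required, 3 with the total that leaves out miR-122, 23 with array weights, 11 with both libraries numbered 1 left out and 13 with control replicate 2 left out as well. Leaving out single libraries gave 2 to 10 lower. The count was 10 without control replicate 1, 3 when either control replicate 3 or control replicate 5 was dropped, and 2 when Tsc1 mutant replicate 4 was. With 1047 to 3581 reads per library, depth limits miR-101c more than the abundant members. Reads without molecular identifiers are not independent molecules.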
